A study of Mus musculus with 20 samples.

Results

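Transcripts of the heme synthesis and breakdown enzymes were followed in the livers of 20 mice. The set held 9 genes chosen by name: Alas1, Alas2, Alad, Uros, Urod, Cpox, Ppox and Fech of heme synthesis, and Hmox1 of heme breakdown. All 9 had at least 1 probe set that the array annotation assigns to them alone, 20 probe sets in all. Where a gene had several, the one whose 20-array mean was greatest was used, so the levels chose the probe sets and carry no test. All 9 also passed the filter on low values and are part of the 11728 genes tested, out of 18193 genes measured. No group entered that choice.

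The animals were male C57BL/6J mice, an inbred strain, purchased at 3 weeks of age, given a 10 kcal% fat diet for acclimation and labelled as 8 weeks old. For 4 weeks, 10 mice received a high-fat diet of 45 kcal% fat (HFD) and 10 received that diet plus 0.05% MSXH, a maple syrup extract. Mice were fasted for 16 h and killed on day 30, and each liver gave 1 array. A low-fat group and a 0.02% MSXH group named in the protocol are not analysed here. Hepatocyte markers were high, from a mean of 11.42 log2 units for Tat, an amino acid enzyme, to 14.74 for albumin (Alb). The question addressed is how the extract alters the liver under high-fat feeding.

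Heme is an iron-containing ring made from glycine and succinyl-CoA in steps that start and end in mitochondria. Alas1, the housekeeping form of the first and rate-limiting enzyme, supplies the liver, where much of the heme goes into cytochrome P450 enzymes, and heme itself represses it. Alas2 is the form used by developing red blood cells. Alad, Uros and Urod work in the cytosol, Cpox, Ppox and Fech in mitochondria, and Hmox1 opens the heme ring to release iron, carbon monoxide and biliverdin.

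Promoter sequences were looked up because several members moved together from mouse to mouse, as described below. The RefSeq promoter table (GRCm38.p6), with windows from 250 bases before to 50 bases after each start, held 10 windows for 7 of the 9 members. Fech and Hmox1 were not among them. The first sequence is the 250 bases before the Alas2 start (chrX:150547167-150547416, plus strand), shown because Alas2 and Alad were correlated. Its capitals mark a match, on the reverse strand, to AGATAA, a motif bound by GATA factors, 86 bases before the start. The second is the 250 bases before one Alad start (chr4:62520064-62520313, minus strand), with capitals on CACGTG, the E-box bound by clock and MYC-type factors, 105 bases before the start. The third is 30 bases downstream of one Alas1 start (chr9:106247905-106247934, minus strand), shown because Alas1 varied most. Its capitals mark a match to the motif of NRF-1, a regulator of mitochondrial genes. Any base was allowed in place of the T in the capitals. Both strands were searched, and the match printed here reads alike on both.
Alas2: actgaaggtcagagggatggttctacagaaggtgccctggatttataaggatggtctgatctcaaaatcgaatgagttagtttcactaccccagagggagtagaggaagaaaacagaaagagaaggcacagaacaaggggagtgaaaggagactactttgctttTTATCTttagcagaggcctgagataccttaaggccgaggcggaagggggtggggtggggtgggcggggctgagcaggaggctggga
Alad: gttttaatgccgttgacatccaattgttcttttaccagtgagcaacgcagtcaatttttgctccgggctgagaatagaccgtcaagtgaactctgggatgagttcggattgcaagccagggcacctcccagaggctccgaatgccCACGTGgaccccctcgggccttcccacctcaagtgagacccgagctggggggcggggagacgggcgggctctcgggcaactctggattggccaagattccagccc
Alas1: gcacccaagGCGCATGCGCggcggtcactc
Over all 32851 windows in the table, on either strand, AGATAA was present in 11.2%, CACGTG in 7.15% and the NRF-1 motif in 4.6%. Among the 10 member windows, AGATAA was present in 2, CACGTG in 4 and the NRF-1 motif in 3. Windows of 1 gene can overlap: the 2 Alas1 windows hold the same NRF-1 matches, so those 3 windows stand for 2 genes, Alas1 and Uros. AGATAA matched in windows of Alas2 and Cpox, and CACGTG in both Alad windows and in windows of Urod and Uros. The motifs marked in the Alas2 and Alad sequences are thus not shared by these genes. TGATAA, the other GATA spelling searched, was in 2 of 10 member windows against 9.05% of all. TGACNNNGC, the core of the antioxidant response element, was in 0 of 10 against 12.4%. CCNCNCCC, a motif of KLF-type factors, was in 9 of 10 against 49.5% and shares letters with other GC-rich motifs. It matched in the Alas2 window and in both Alad windows, and is not marked above. Both Alas1 windows hold some of the same CCNCNCCC matches, as do both Alad windows. AGATAA and TGATAA share the letters GATAA. These matches are descriptions of letters and were not tested as binding sites.

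The deposited log2 values vary very little between arrays. The median probe set had an SD of 9.33 millionths of a log2 unit over the 20 mice, and array medians spanned 176 millionths. The values are therefore given as deviations from each gene's own 20-mouse mean, in millionths of a log2 unit. Diet differences are MSXH minus HFD, also as Hedges' g, the difference in pooled SD units, and, since how the values were scaled is not given, neither is read as a fold change. Levels of different probe sets are not compared with each other. All 20 arrays were kept, and no batch is given in the labels.

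Variation between mice differed widely among the members (the plot of values by mouse). Alas1 had an SD of 2167 millionths, higher than that of 98.4% of all genes tested. Alas2 had an SD of 521 millionths and lay above 95.6% of genes, and Hmox1 had 383 millionths and lay above 94.5%. Alad (100.1 millionths) and Fech (63.4 millionths) followed, above 86.8% and 81.9% of genes. Uros, Cpox and Urod had SDs of 29.0, 24.0 and 23.8 millionths, above 68.2%, 63.7% and 63.5% of genes. Ppox, at 8.91 millionths, lay above 32.9%. The 2 forms of the first enzyme and Hmox1 thus had the largest deposited spreads. That order was not tested, and below Alas1, Alas2 and Hmox1 it depended on the probe set used. The other above-filter probe set had an SD of 112.4 millionths for Cpox and 41.5 for Alad. For Fech the others had 24.9 and 85.7 millionths, and for Urod the other had a larger SD than the one used. For Alas1 the other had 851 millionths, still above Alas2 and Hmox1.

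**Figure D1:**
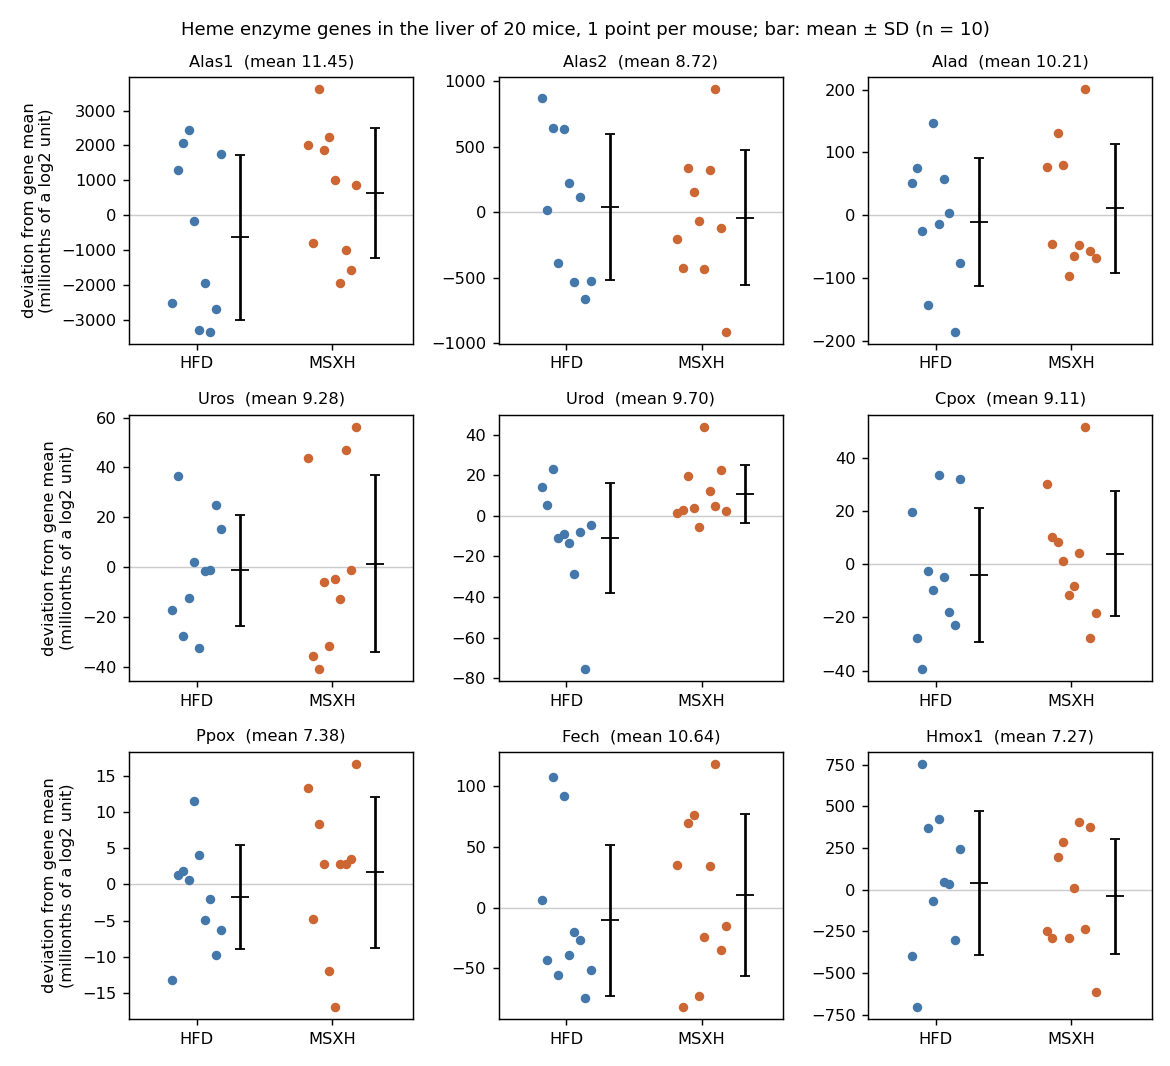
Deviation of each of the 9 members from its 20-mouse mean, in millionths of a log2 unit, for the 10 HFD and 10 MSXH mice; each point is 1 mouse and the bars are the group mean ± SD. The axis differs between genes. The groups overlap for every gene, and for Urod each of the 10 MSXH values exceeds the HFD median.

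Alas1 had a mean of 11.45 log2 units. In HFD mice it ran from -3334 to 2445 millionths with a median of -1054, and in MSXH mice from -1936 to 3611 with a median of 931. The groups overlap, with HFD replicate 8 lowest of all and MSXH replicate 3 highest. In HFD, 4 mice lay more than 1000 millionths above the mean, 5 more than 1000 below it and 1 between, and in MSXH the corresponding counts were 5, 2 and 3. Alas1 was 1267 millionths higher in MSXH (95% interval -688 to 3222; g 0.571, 95% interval -0.323 to 1.47; limma p = 0.191, adjusted p = 0.9998, n = 10 per group). In MSXH, 8 of 10 mice exceeded the HFD median, but the difference was within the spread between mice.

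Alas2, the erythroid form, had a mean of 8.72 log2 units. HFD mice ran from -663 to 873 millionths around a median of 65.9, and MSXH mice from -910 to 938 around -92.6. The ranges nearly coincide, and the lowest (replicate 10) and highest (replicate 8) mice were both in MSXH. The difference was -80.9 millionths (g -0.145, 95% interval -1.02 to 0.732, limma p = 0.734).

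Alad, which joins 2 aminolevulinate molecules into porphobilinogen, ran from -186 to 147 millionths in HFD (median -4.66) and from -97.2 to 201 in MSXH (median -46.9). Its groups overlap, with HFD replicate 9 lowest and MSXH replicate 8 highest (g 0.202, 95% interval -0.677 to 1.08, limma p = 0.637). Uros, which closes the tetrapyrrole ring, ran from -32.6 to 36.7 millionths in HFD and from -41.1 to 56.3 in MSXH (g 0.0888, limma p = 0.835). Both extremes of Uros were MSXH mice, replicate 3 at the low end and replicate 10 at the high end.

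Urod, which removes carboxyl groups from uroporphyrinogen, showed the largest diet difference of the 9 by g on the deposited scale, but not on either rescaling: Alas1 had g 0.579 against 0.577 with arrays shifted to the same median, and 0.624 against 0.428 after quantile normalization. In HFD its values ran from -75.6 to 23.1 millionths with a median of -8.65, and in MSXH from -5.33 to 43.8 with a median of 4.48. Every one of the 10 MSXH values exceeded the HFD median, 3 of 10 HFD values exceeded the MSXH median, and the groups overlap. The difference was 21.5 millionths (95% interval 1.5 to 41.5; g 0.950, 95% interval 0.0250 to 1.87; limma p = 0.0365). A 2-sided permutation test on the 20 mice gave p = 0.0251. After adjustment over all genes tested the limma p was 0.9998, so Urod was not called. Its second probe set was higher in MSXH too (g 0.903, 95% interval -0.0169 to 1.82), and the first, whose name ends in _x_at, can by array naming share probes with other transcripts. The unadjusted limma p of Urod stayed under 0.05 in 16 of 20 fits that left out 1 mouse each, with g from 0.825 to 1.17, and rose to 0.189 with arrays shifted to the same median (g 0.577). It was 0.339 after quantile normalization (g 0.428). The shifts applied had SDs 2.48 times that of Urod for the median and 2.23 times for quantile normalization.

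Cpox, which makes protoporphyrinogen, ran from -39.5 to 33.4 millionths in HFD and from -27.9 to 51.6 in MSXH (g 0.314, limma p = 0.465). Its lowest mouse was HFD replicate 3 and its highest MSXH replicate 8. The other above-filter Cpox probe set went the opposite way (g -0.667, 95% interval -1.57 to 0.234), and the 2 were barely correlated over the mice (r = 0.0585). Ppox, which oxidises protoporphyrinogen, ran from -13.3 to 11.6 millionths in HFD and from -16.9 to 16.6 in MSXH (g 0.357, limma p = 0.412). Its level lay 0.873 log2 units above the filter.

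Fech, which inserts iron into protoporphyrin, ran from -74.3 to 107 millionths in HFD (median -32.7) and from -81.5 to 118 in MSXH (median 9.38). The lowest and highest mice, MSXH replicates 2 and 8, were in the same group, and the groups overlap (g 0.310, 95% interval -0.572 to 1.19, limma p = 0.471). Hmox1 ran from -703 to 752 millionths in HFD (median 39.7) and from -614 to 409 in MSXH (median -115). Both extremes of Hmox1 were HFD mice, replicate 2 at the low end and replicate 3 at the high end (g -0.197, 95% interval -1.08 to 0.681, limma p = 0.644).

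Considered together, 7 of the 9 members had a positive difference, against 49.4% of all genes, and their median g was 0.310 against -0.00692 over all 11728 genes. With limma, 0 of the 9 members and 0 of 11728 genes passed the adjusted threshold of 0.05 (0.0% called). At an unadjusted p under 0.05 the count was 1 of 9, namely Urod, against 3.62% of genes in either direction and 1.88% higher in MSXH. No member was lower at that level, against 1.74% of genes. The number of mice limits what can be seen: in simulated data with 200 shifted genes among 11728, limma called 1% of those moved by 1 SD, 66% of those moved by 2 SD and 98% of those moved by 3 SD.

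**Figure D2:**
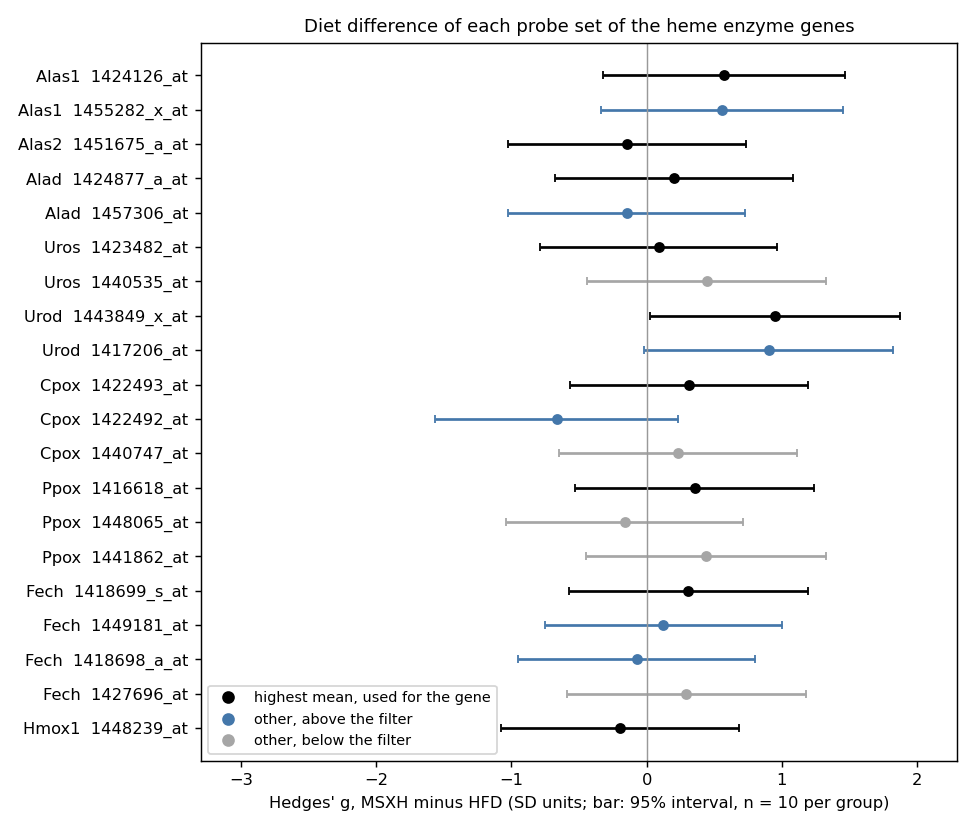
Hedges' g, MSXH minus HFD, for all 20 probe sets of the 9 members, with 95% intervals; black marks the probe set used, blue others above the filter and grey those below it; positive means higher in MSXH. Urod is the only member whose chosen probe set has an interval above 0 (0.0250 to 1.87).

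Probe sets of 1 gene gave a reading of how far these small differences are shared by different probe sets on the same arrays. Of 7 pairs of above-filter probe sets, 5 had r at or above 0.6 over the 20 mice, against 33.3% of 12322 such pairs over all genes. The highest was Alas1 (r = 0.988), then Fech (0.848, 0.813 and 0.783 for its 3 pairs) and Urod (0.841). The 3 Fech pairs share probe sets and are not independent. The second Alas1 probe set, like the first of Urod, has a name ending in _x_at, so it can share probes with other transcripts. Alad's pair reached 0.508. The second Alad probe set had g -0.148, and another of Fech -0.0730, each opposite in sign to the one used here. One Uros probe set below the filter ran against the one used (r = -0.624).

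Co-variation over the 20 mice was computed for all 36 pairs of members, with permutation p values from 100000 permutations and Benjamini-Hochberg adjustment over the 36. Alas2, Alad and Fech rose and fell together: 3 pairs passed, and those 3 were also the only pairs with r at or above 0.6. Of all gene pairs, 1.99% reached 0.6. Alas2, Alad and Fech reached it with 5.82%, 5.54% and 7.36% of all genes. No pair reached -0.6, against 1.14% of all pairs. Alad and Fech had r = 0.731 (permutation p = 0.00035, adjusted p = 0.009; rho 0.719, permutation p = 0.00065, adjusted p = 0.0234). Alas2 and Fech had r = 0.709 (permutation p = 0.0005, adjusted p = 0.009; rho 0.638, permutation p = 0.00281, adjusted p = 0.0413). Alas2 and Alad had r = 0.652 (permutation p = 0.00215, adjusted p = 0.0258; rho 0.633, permutation p = 0.00344, adjusted p = 0.0413).

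**Figure D3:**
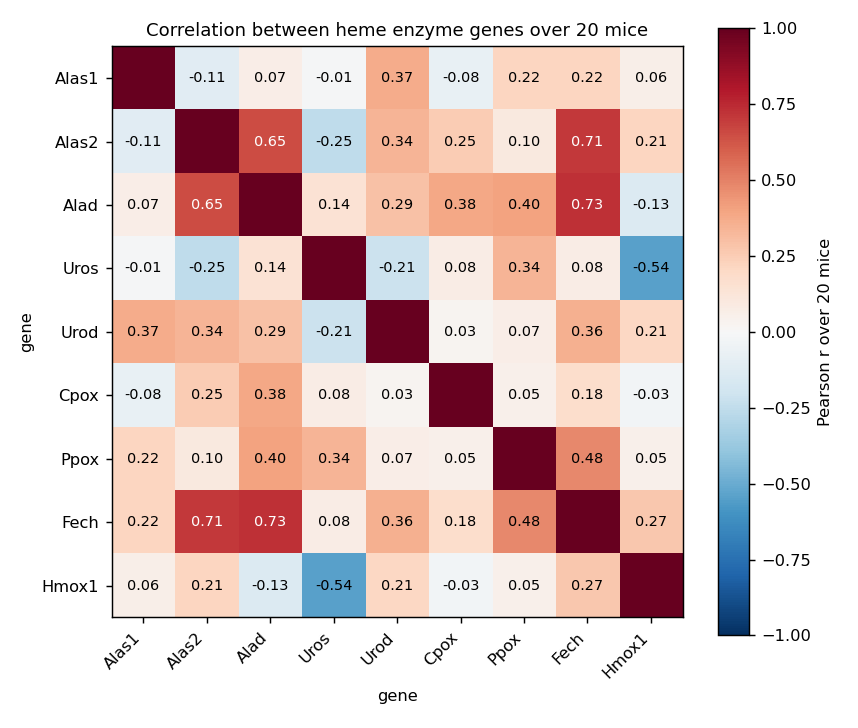
Pearson correlation of every pair of members over the 20 mice, shown as a colour grid with the value in each cell. The 3 cells of Alas2, Alad and Fech hold the highest values, 0.652 to 0.731, and Uros with Hmox1 the lowest, -0.543.

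The 3 correlations were positive within each diet. For Alad with Fech, r was 0.559 in HFD and 0.885 in MSXH; for Alas2 with Fech, 0.751 and 0.723; for Alas2 with Alad, 0.616 and 0.722. Leaving out the 2 mice farthest from the median of the first gene gave r of 0.593, 0.698 and 0.559. Against each gene's correlations with all other genes, Fech stood at the 98.1st percentile among those of Alas2 and at the 98.4th among those of Alad. Among those of Fech, Alad stood at the 97.5th and Alas2 at the 96.8th. Alad stood at the 96.3rd among those of Alas2, and Alas2 at the 96.2nd among those of Alad.

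The pattern rested in part on 1 mouse and on the scaling. Without MSXH replicate 8, which was highest for all 3 genes, Alad with Fech had r = 0.662 and Alas2 with Fech 0.643 (adjusted p = 0.0533 each), and Alas2 with Alad 0.566 (adjusted p = 0.137). Alas2 with Alad was also lost without HFD replicate 5 (r = 0.615, adjusted p = 0.0614) or HFD replicate 9 (r = 0.607, adjusted p = 0.0736). After quantile normalization the 3 values were -0.263, 0.366 and -0.136 in the order above, where the shifts applied had SDs 7.35 times that of Alad, 23.2 times that of Fech and 1.35 times that of Alas2. Other probe sets of the same genes gave 0.740 and 0.667 for Alas2 with Fech, 0.596 for Alas2 with Alad, and 0.359 to 0.527 for Alad with Fech.

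Alas2 and Fech also followed the main axis of the whole data set, and Alad ran the same way but did not pass by r. The first principal component of all genes, 16.4% of the variance, had r = 0.872 with Fech and 0.821 with Alas2 (permutation p = 1e-05, the smallest possible, and 2e-05; adjusted p = 0.00045 each over 45 relations). With Alad it had r = 0.615 (permutation p = 0.00433, adjusted p = 0.0650). By rank, rho with the component was 0.862 for Fech, 0.839 for Alas2 and 0.666 for Alad. The permutation p of that rho for Alad was 0.00195, without adjustment. The array median, the middle value of each array, had r = -0.517 with Alas2, -0.535 with Fech (adjusted p = 0.1125 each) and -0.406 with Alad (adjusted p = 0.3465). By rank it had rho -0.726 with Alas2, -0.638 with Fech and -0.463 with Alad. The permutation p values of these rho, without adjustment, were 0.0004, 0.00306 and 0.0423. With the first component taken out, Alad with Fech had r = 0.506 (adjusted p = 0.234), Alas2 with Alad 0.327 (adjusted p = 0.419) and Alas2 with Fech -0.0251 (adjusted p = 0.967). The part of the array median or of that axis in the co-variation was not tested.

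**Figure D4:**
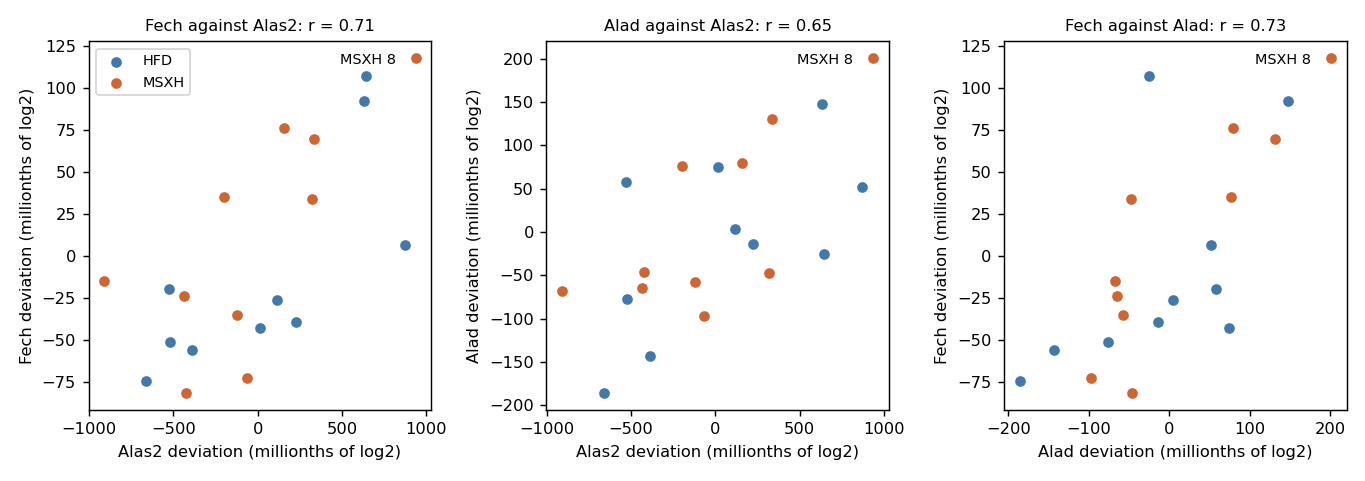
Alas2, Alad and Fech plotted against each other over the 20 mice, each axis a deviation from the gene's own mean in millionths of a log2 unit, with HFD and MSXH in separate colours. Points of both diets rise together, and MSXH replicate 8 sits at the top right of all 3 panels.

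Other pairs did not pass. Uros with Hmox1 was the most negative (r = -0.543, permutation p = 0.0135, adjusted p = 0.121; rho -0.424), at -0.708 in HFD and -0.469 in MSXH. Ppox with Fech had r = 0.477 (permutation p = 0.0345, adjusted p = 0.248). Alas1 was near 0 with Alas2 (r = -0.114), Alad (0.0677) and Hmox1 (0.0556). Alad with Cpox was 0.80 in MSXH and -0.0261 in HFD, a gap that was not tested.

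Each member was then ranked against all 11727 other genes by Spearman's rho over the 20 mice, giving its 3 nearest and 2 most opposed genes. Aox3 (rho 0.922), an aldehyde oxidase, P4hb (0.905), a protein disulphide isomerase, and Slc22a30 (0.899) ran closest to Alas2, and Kctd13 (-0.877) and Osbpl1a (-0.863) most against it. Nipsnap1 (0.925), Msra (0.919), a methionine sulphoxide reductase, and Ebpl (0.907) ran with Alad, and Kctd15 (-0.874) and Ndufaf4 (-0.856) against it. Nadk2 (0.919), the mitochondrial NAD kinase, Cyp2d13 (0.910) and Abhd17a (0.904) ran with Fech, and Gpt2 (-0.920), a mitochondrial alanine aminotransferase, and Ktn1 (-0.890) against it. These 3 genes had r at or above 0.6 with 5.82%, 5.54% and 7.36% of all genes, against 0.307% for Alas1 and 0.281% for Cpox.

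The other members had weaker nearest partners. Alas1 ran with Rgs3 (rho 0.774), Plk3 (0.753) and Tfpt (0.750), and against Nags (-0.814), the enzyme that makes the urea cycle activator N-acetylglutamate, and Snai2 (-0.777). Hmox1 ran with Ppm1g (0.806), Slc37a3 (0.803) and Grpel2 (0.779), and against Cfap126 (-0.780) and Olfml2b (-0.779). Uros ran with Tent5c (0.795), Hps4 (0.789) and Dbndd2 (0.765), and against Pom121 (-0.853) and Glcci1 (-0.818). Urod ran with Rsph3a (0.815), Ccnyl1 (0.814) and Zfp131 (0.791), and against Atpsckmt (-0.842) and Nmt1 (-0.815). Cpox had Mcoln1 (0.734), Ctse (0.728) and Decr2 (0.713) on one side and 4930448K20Rik (-0.684) and Acyp1 (-0.663) on the other. Ppox had Eola1 (0.839), Parp14 (0.833) and Polr2f (0.822), and Pgam2 (-0.872) and Asf1b (-0.803).

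Genes of heme transport, scavenging, regulation and use were read from lists of other pathway members. Correlations between the 9 members and 89 such genes and cell type markers formed 801 pairs in 1 adjustment, of which 55 passed by r, 51 by rho and 43 by both. Of the 801 pairs, 4.37% had r at or above 0.6 and 3.62% at or below -0.6, against 1.99% and 1.14% of all gene pairs. Each of the 801 pairs holds a member, so the members' own shares over all genes are the closer background. At or above 0.6 these ran from 0.281% (Cpox) to 7.36% (Fech). At or below -0.6 they ran from 0.119% (Cpox) to 4.21% (Fech), with Alas2 at 3.16% and Alad at 2.69%. By r, Alas2, Alad and Fech, each of which had r at or above 0.6 with over 5% of all genes as given above, accounted for 47, Hmox1 and Uros for 3 each, Urod and Ppox for 1 each, and Alas1 and Cpox for 0. Of the genes that passed, 7 passed with Alas2, Alad and Fech alike: Abcb10, Cps1, Cyp4a14, Lrp1, Pgrmc1, Sdhc and Tdo2.

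Among the transport genes, Alas2 rose and fell with Abcg2, an exporter of porphyrins (r = 0.845, permutation p = 1e-05, adjusted p = 0.00134), and Pgrmc1, a heme-binding membrane protein that interacts with ferrochelatase (r = 0.812, adjusted p = 0.00134). Abcb10, a mitochondrial transporter linked to heme synthesis, had r = 0.733 with Fech (adjusted p = 0.0139), 0.718 with Alad (adjusted p = 0.0147) and 0.685 with Alas2 (adjusted p = 0.0217). Fech also rose with Blvrb, a biliverdin reductase (r = 0.709, adjusted p = 0.0154), and with Abcb6, a porphyrin transporter (r = 0.662, adjusted p = 0.0313). Its strongest partner among scavenging genes was Lrp1, the receptor for hemopexin-bound heme (r = 0.901, adjusted p = 0.00134). Hmox2, the constitutive heme oxygenase, ran against Alas2 (r = -0.626, adjusted p = 0.0451, rho adjusted p = 0.0658) and Fech (r = -0.633, adjusted p = 0.0446, rho adjusted p = 0.163). The part of the first component in these pairs was not tested.

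Most genes of heme proteins and their partners ran against Alas2, Alad and Fech. Of the 19, 6, 7 and 7 were positive, at median r of -0.425, -0.386 and -0.524. Of all genes, 52.2%, 53.4% and 54.3% were positive with Alas2, Alad and Fech. Counts were alike for Alas1, Urod and Ppox (6 of 19 each) and Hmox1 (8 of 19), at median r of -0.134, -0.0885, -0.109 and -0.0258. Uros and Cpox had 9 of 19 each. The members that passed included Tdo2, the tryptophan dioxygenase, against Fech (r = -0.848), and catalase (Cat, r = -0.774) and cytochrome c (Cycs, r = -0.748) against Alad. Catalase with Alad did not pass by rho (adjusted p = 0.0525). Among those on the positive side, Cyb5r3, the reductase that serves cytochrome b5, had r = 0.807 with Alad and 0.792 with Alas2, and Cyp1a2, a P450 of the central lobule, 0.763 with Alas2. Cyp4a14, a fatty acid hydroxylase, ran against Alad (r = -0.814), Fech (-0.789) and Alas2 (-0.744), and Cyp8b1, a bile acid enzyme, against Alas2 (-0.726). Hmox1 passed with Klf1, an erythroid transcription factor (r = -0.65, adjusted p = 0.0322, rho adjusted p = 0.0542), Tmem14c, a porphyrinogen transporter (r = -0.648, adjusted p = 0.0340, rho adjusted p = 0.0962), and Timd4, a Kupffer cell receptor (r = 0.639, adjusted p = 0.0434). Alas1's strongest partners by rho did not pass: Cycs (rho -0.492), Hmox2 (-0.459) and Suox (-0.451).

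Markers of other cells were read beside Alas2 and Hmox1. None of the 5 of 16 red cell markers that could be used passed with Alas2. Their r ran from -0.0465 for Ermap to 0.410 for Bpgm, with Hba-a1 at -0.0126 and Hbb-b2 at 0.041. Bpgm was positive in HFD (r = 0.504) and in MSXH (r = 0.574). The 5 markers had low means, 6.54 to 7.29 log2 units against a filter of 6.505, and none was at 0. Hba-a2, Slc4a1, Epb42 and Rhag fell below the filter, and 7 listed genes, including Hbb-b1, are not used here. The part of red cell content in the Alas2 values was not tested. Summed over the 5, the deviation ran from -404 to 91.8 millionths in HFD and from -99.3 to 265 in MSXH. Kupffer cell and macrophage markers were positive with Hmox1 for 13 of 13 (median r 0.542, Timd4 passing) and with Alas2 for 12 of 13 (median r 0.518). Other members were alike in count: 12 of 13 were positive with Fech (median r 0.47), Urod (0.305), Ppox (0.253) and Alad (0.241), against 1 of 13 with Uros and 3 of 13 with Cpox. With Fech, Cd68 passed by r (r = 0.692, adjusted p = 0.0204) but not by rho (adjusted p = 0.0598). For Alas2 the markers that passed by r were Cd5l (r = 0.704) and Cd68 (0.649). By rho, Adgre1 (r = 0.602, rho 0.741, rho adjusted p = 0.0171) and C1qc (r = 0.580, rho 0.656, rho adjusted p = 0.0439) passed too. Cd163 ran the other way (r = -0.601, adjusted p = 0.0660) and did not pass by rho either (rho -0.507, rho adjusted p = 0.168). Of all genes, 49.0% had a positive r with Hmox1, 52.2% with Alas2 and 54.3% with Fech. With Alas1, 10 of 13 were positive at a median r of 0.106. The summed macrophage marker deviation ran from -3555 to 7544 millionths in HFD and from -10022 to 12118 in MSXH. In whole liver, fewer cells of a type and less RNA per cell cannot be told apart, and the part of macrophage content in the values of Hmox1, Alas2 and Fech, and in the co-variation of Alas2, Alad and Fech, was not tested. Hmox1 also ran against the actin 3' minus 5' difference, a sign of RNA quality (r = -0.532, permutation p = 0.016, adjusted p = 0.112; rho -0.412, permutation p = 0.0728), and with the first component (r = 0.519, permutation p = 0.02, adjusted p = 0.112; rho 0.498, permutation p = 0.027). The part of either in the Hmox1 values was not tested.

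**Figure D5:**
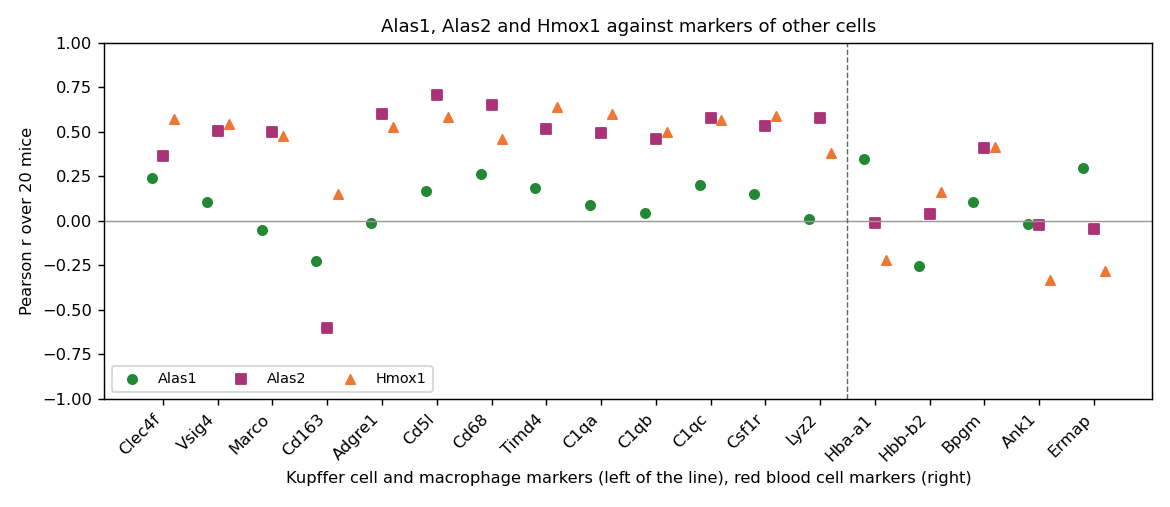
Pearson correlation over the 20 mice (vertical axis) of Alas1, Alas2 and Hmox1 with 13 Kupffer cell and macrophage markers, left of the dashed line, and 5 red cell markers, right of it. Hmox1 is positive with all 13 macrophage markers (median 0.542), and red cell markers lie between -0.0465 and 0.410 for Alas2.

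By diet, none of the wider lists held a gene past the adjusted threshold. Of 19 other heme pathway genes tested, 11 were higher and 8 lower in MSXH, with Slc25a28, a mitochondrial iron importer, at g 1.03 (limma p = 0.0325, adjusted p = 0.9998). Of 19 regulators, 9 were higher and 10 lower. Gata1, the erythroid factor whose motif family was searched above, had g -1.46 (limma p = 0.00492, adjusted p = 0.9998), at a mean of 6.55 log2 units, close to the filter. Of 8 scavenging genes 5 were higher, with hemopexin (Hpx) at g 0.208, and of 19 genes of heme proteins and their partners 9 were higher, with Cycs at -0.795 and Cyp3a11 at 0.602. Among the 5 usable red cell markers, 3 were higher and 2 lower in MSXH. Before adjustment, Hbb-b2 (g 1.25, limma p = 0.00789) and Bpgm (g 0.981, limma p = 0.0310) were higher, against 1.88% of all genes. Neither passed after it (adjusted p = 0.9998 each), and Hbb-b2 had a mean of 6.62 log2 units, also close to the filter. Hba-a1 had g 0.166, Ermap -0.189 and Ank1 -0.730. Alas2 was not higher (g -0.145). Across the 13 macrophage markers 4 were higher and 9 lower, at a median g of -0.105.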

How the data were processed

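Liver RNA of 10 HFD and 10 MSXH mice was measured on Affymetrix 3' arrays, from 200 ng of total RNA per the labels' protocols. The authors deposited log2 values; how background, normalization and probe summary were handled is not given in the sources used here. How they were scaled is unknown, so the very small differences between arrays are not read as fold changes. Of 45101 probe sets, 64 controls were left out, 34945 name 1 gene, 932 several and 9160 none. One probe set per gene (highest mean) was kept, and genes with a mean of at least 6.505 log2 units were tested with limma 3.58.1 in R 4.3.3 (lmFit, eBayes, Benjamini-Hochberg over 11728 genes). Correlations and single-gene tests used 100000 two-sided permutations (Python 3.11.15, scipy 1.17.1). Named genes were all members, the 3 nearest and 2 most opposed genes of each, and up to 3 genes per list by diet p or by rho with Alas1, Alas2 or Hmox1. Partners of other members were chosen after their values were seen. The members and lists were chosen with earlier results of these data known. Labels call the arrays biological replicates, 1 per mouse. The number of arrays limits the precision. Alternatives covered scaling, filter, variance model, probe set, replicate block and leaving out each mouse. The test was run on simulated data first.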

Additional observations from a re-analysis of the deposited data

Results flagged for a closer look

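Urod in HFD replicate 9 lay apart from the other 9 mice of its group. Its deviation was -75.6 millionths of a log2 unit, the nearest HFD mouse was at -28.5, and that gap was 0.477 of the group's range, past Dixon's 95% critical value. It was the only one of 18 sets (9 genes in 2 diets) to stand apart, where chance gives about 5% of sets, or 0.9. Without this mouse the diet difference of Urod was g 0.914 (limma p = 0.0491).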

How the results depend on the processing

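In every alternative, 0 members and 0 genes passed the adjusted threshold by diet. Numbers of genes at an unadjusted p under 0.05 were 425 as reported, 46 with arrays shifted to the same median, 126 after quantile normalization, 780 without a filter, 197 with the 75th percentile filter and 318 to 598 leaving out 1 mouse each. Among genes of the other lists, cell type markers included, 4 of 89 were at that level (2 of them the red cell markers Hbb-b2 and Bpgm) against 3.62% of all genes, and 1 of 72 with the 75th percentile filter, which tests fewer genes. Pairs of members passing went from 3 to 20 with arrays shifted to the same median and to 0 after quantile normalization. They ranged from 0 to 4 leaving out 1 mouse each (0 without MSXH replicate 8). The median shift, the same for every gene of an array, had an SD of 59.0 millionths. That is 6.63 times the SD of Ppox, 2.48 of Urod, 2.46 of Cpox and 2.04 of Uros. It is 0.931 times that of Fech, 0.590 of Alad, 0.154 of Hmox1, 0.113 of Alas2 and 0.0272 of Alas1. Signs turned after quantile normalization for Ppox (g -0.0722), Fech (g -0.257), Alas2 with Alad (r -0.136) and Alad with Fech (r -0.263). They also turned with other probe sets of Alad (g -0.148), Cpox (g -0.667) and Fech (g -0.0730), and for Alas2 with Fech with the first component taken out (r -0.0251), an alternative chosen after seeing the data. Leaving out 1 mouse each, g ran from -0.371 to 0.0298 for Alas2 and from -0.117 to 0.249 for Uros. The causes were not tested. In a fit with a replicate block (mice of the same number), 0 genes were called, 501 had an unadjusted p under 0.05, and Urod had g 0.851 (limma p = 0.0682), which left 0 members at that level. Same-numbered mice correlated at -0.133 to 0.369 (mean 0.0530, against -0.00601 for other numbers), and 2 arrays correlated best with their own number. The labels state no pairing, and these correlations cannot show whether same-numbered mice were handled together. How far signals exceeded background cannot be given from the deposited values.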
